A study of Mus musculus with 6 samples.

Results

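Transcripts of 10 genes that carry or shape fibroblast growth factor (FGF) signals were followed in the prospective lens of Pax6 knockout and wild type mouse embryos. They were the ligands Fgf2, Fgf8, Fgf9, Fgf10 and Fgf15, the receptors Fgfr1, Fgfr2 and Fgfr3, and the Flrt proteins Flrt2 and Flrt3. The members were chosen by gene symbol, as every probe that the platform annotation assigns to 1 of these genes, which gave 18 of the 46632 probes of the array. Of the 18 probes 12 were detected often enough to be tested, and none of these passed the test between genotypes. Fgf2, Fgf8 and Fgfr3 had no such probe. Flrt2 was lower and Fgf15 was higher on every knockout array than on every wild type array. Of all probes tested, 6.47% were lower and 5.54% higher in this way. In the other members tested the genotypes overlapped.

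FGF ligands are secreted proteins that bind receptor tyrosine kinases together with heparan sulfate, and the activated receptors signal through the Ras and ERK kinases to switch on ETS transcription factors and the pathway's own inhibitors. In the eye, FGF signals pass between the optic vesicle and the overlying surface ectoderm, and FGF receptor activity in the ectoderm is needed for normal lens development. Flrt proteins are transmembrane proteins with leucine-rich repeats and a fibronectin type III domain. They associate with FGF receptors, and they also bind Unc5 receptors and latrophilins on neighbouring cells.

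The knockout embryos were 3 of the genotype Pax6-/-, whose tissue the labels call surface ectoderm, and they were set against 3 wild type embryos, whose tissue is called lens placode. All were at embryonic day 9.5 on a mixed background (FVB; 129), and neither the deleted part of Pax6 nor the sex of the embryos is given. Both prospective lenses of an embryo were cut by laser microdissection from 10 micrometre sections, 15 ng of RNA was amplified to cDNA, and every embryo had an Illumina BeadArray of its own, which makes each replicate a separate embryo. In such tissue, fewer cells of a type and less RNA per cell cannot be told apart.

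The promoters of the Flrt pair are shown first, because the differences of these relatives had opposite signs. Neither difference passed the test, and the Flrt3 values of the genotypes overlapped. Each line holds the 250 bases before the annotated start (RefSeq, GRCm38.p6), chr12:95691976-95692225 on the plus strand for Flrt2 and chr2:140671477-140671726 on the minus strand for Flrt3, 5′ to 3′ in the direction of the gene. Capitals mark matches to the motifs searched.
Flrt2: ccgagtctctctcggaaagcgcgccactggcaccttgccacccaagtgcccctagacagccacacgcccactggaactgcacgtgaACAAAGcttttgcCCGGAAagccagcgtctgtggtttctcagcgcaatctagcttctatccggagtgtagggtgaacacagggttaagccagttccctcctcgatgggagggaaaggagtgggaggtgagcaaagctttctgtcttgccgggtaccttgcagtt
Flrt3: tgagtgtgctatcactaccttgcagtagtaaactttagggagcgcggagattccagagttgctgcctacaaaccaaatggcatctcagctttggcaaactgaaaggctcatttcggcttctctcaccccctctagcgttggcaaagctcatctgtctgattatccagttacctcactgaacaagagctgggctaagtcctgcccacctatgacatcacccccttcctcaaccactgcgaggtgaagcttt
Both strands were searched for TATAAA (the core promoter box of that name), CCAAT (bound by NF-Y), CCGGAA (ETS factors), ACAAAG (SOX factors) and TAATTA (homeodomain factors), none of which overlap in these windows. The Flrt2 window held CCGGAA and ACAAAG, starting 151 and 164 bases before the gene's start, and the Flrt3 window held none of the 5. Of 32851 promoter windows of the same length, 12.0% held CCGGAA, 16.5% ACAAAG, 12.4% TATAAA, 33.8% CCAAT and 4.84% TAATTA. A match describes the letters only and was not tested as a binding site.

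Values below are normalized log2 intensities, and differences are knockout minus wild type on that scale with a standard error (SE). Between 38.8% and 41.6% of probes were detected per array, meaning a detection p-value under 0.05. Knockout 1 had the lowest median raw signal (41.7, against 47.3 to 49.8 on the other arrays) and stood apart on the first principal component, at -64.1 against -1.55 to 31.2. The brightest probe of Pax6 was not lost but read 8.97, 9.37 and 9.59 in knockout 1, 2 and 3, against 10.39, 10.03 and 9.74 in wild type 1, 2 and 3 (difference -0.74, SE 0.21, limma adjusted p = 0.448). The brightest probe of Xist, expressed from the inactive X of female cells, was detected on 0 of 3 knockout arrays and 3 of 3 wild type arrays. Kept probes of the Y-linked Kdm5d, Eif2s3y and Uty were all detected on 3 of 3 knockout arrays. On wild type arrays they were detected on 0 of 3 (Kdm5d), 0 of 3 and 2 of 3 (Eif2s3y) and 1 of 3 (Uty). In each, all knockout values lay above all wild type values, so genotype and sex cannot be told apart in any comparison here. The summed linear intensity of 8 detected lens placode markers was 2554 to 2862 in knockout and 4417 to 6262 in wild type, and that of 10 surface ectoderm markers was 4148 to 5012 in knockout and 4769 to 5331 in wild type. The lens markers Foxe3, Pitx3 and Cryaa did not pass the detection filter.

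A probe was kept for testing when it was detected on at least 3 of the 6 arrays. Of the 18 probes 12 passed, and they cover 7 of the 10 genes. Fgf2, Fgf8 and Fgfr3 had no probe that passed. Over all 19381 probes kept, 18 reached a limma adjusted p (Benjamini-Hochberg) under 0.05, which is 0.0929%. Of these 7 were higher (0.0361%) and 11 lower (0.0568%) in knockout. With median scaling the split was 3 higher and 8 lower. No member was among them, in either direction, and the smallest adjusted p of a member was 0.425. At an unadjusted p under 0.05 stood 2 of the 12 probes, against 7.22% of all probes kept. The knockout and wild type values did not overlap in 2 of the 12, against 12.0% of all probes kept.

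**Figure D1:**
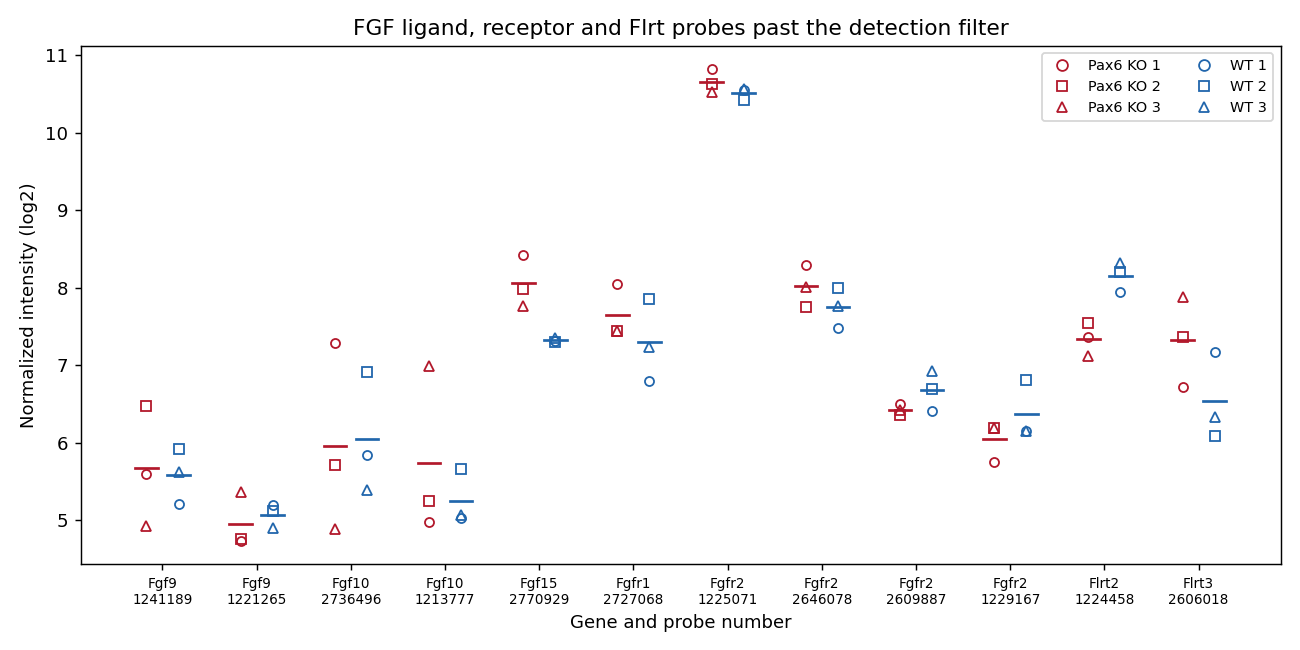
Normalized log2 intensity (vertical axis) of the 12 member probes past the detection filter, named by gene and probe number (horizontal axis). Each symbol is 1 embryo, red for Pax6 knockout and blue for wild type, with the shape giving the replicate number, and bars are group means. The colours separate for Fgf15 (knockout above) and Flrt2 (knockout below), and knockout 1 and knockout 3 change places between the probe pairs of Fgf10.

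Fgf15 was the only member ligand detected on all 6 arrays. Fgf15, the mouse counterpart of human FGF19, is made in the neural retina and forebrain of the early embryo. It read 8.42, 7.98 and 7.77 in knockout 1, 2 and 3, against 7.32, 7.30 and 7.35 in wild type 1, 2 and 3. All knockout values lay above all wild type values, which 5.54% of all probes kept also showed, and the wild type embryos lay close together (SD 0.025, n = 3) while the knockout embryos did not (SD 0.33, n = 3). The difference of 0.73 (SE 0.23, 95% interval 0.20 to 1.26), or 1.66-fold, did not pass (limma adjusted p = 0.502). In raw signal Fgf15 read 307, 276 and 250 in knockout 1, 2 and 3, against 191, 198 and 208 in wild type 1, 2 and 3.

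Markers of the optic vesicle, a tissue that makes Fgf15 and lies against the lens ectoderm, were also higher on some knockout arrays. Of 11 such markers with a named probe 7 passed the filter, 6 of them with a positive difference and none past the test, and Vax2, Sox1, Hes5 and Nes did not pass the filter. The summed linear intensity of the 7 was 524, 994 and 982 in knockout 1, 2 and 3, against 623, 593 and 429 in wild type 1, 2 and 3. Tbx5 had the largest of the 7 differences (1.62), and Cdh2 ran the other way (-0.30). Knockout 1, the array highest for Fgf15, had an optic vesicle sum within the wild type range, and knockout 2 and 3 had sums above it. Without knockout 1 the Fgf15 difference was 0.55 (adjusted p = 0.734). The summed linear intensity of 4 detected neuron markers was 505, 479 and 589 in knockout 1, 2 and 3, against 375, 387 and 327 in wild type 1, 2 and 3, with 3 of the 4 differences positive and none past the test. That separation rested on Isl1 (difference 1.00), without which, an alternative chosen after seeing the data, the sums overlapped at 229, 245 and 296 in knockout 1, 2 and 3, against 243, 237 and 209 in wild type 1, 2 and 3. Neurog2 ran the other way (-0.40). The neuronal markers Dcx, Neurog1, Neurod1 and Neurod4 did not pass the filter. Sums of 3 detected endothelial markers were 255 to 318 in knockout and 220 to 289 in wild type. The part of optic vesicle or neuronal cells in the Fgf15 difference was not tested.

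Fgf10, a ligand of mesenchyme that acts on epithelial receptors, gave contrary readings from its pair of probes. By ILMN_2736496 it read 7.28, 5.72 and 4.88 in knockout 1, 2 and 3, against 5.84, 6.91 and 5.39 in wild type 1, 2 and 3 (difference -0.09, SE 0.63), detected on 2 of 3 knockout and 3 of 3 wild type arrays. By ILMN_1213777 it read 4.97, 5.25 and 6.98 in knockout 1, 2 and 3, against 5.03, 5.66 and 5.06 in wild type 1, 2 and 3 (difference 0.49, SE 0.48), detected on 2 of 3 knockout and 1 of 3 wild type arrays.

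Knockout 1 was highest by the first Fgf10 probe and lowest by the second, and knockout 3 was lowest by the first and highest by the second. Neither difference passed (adjusted p = 0.991 and 0.916), and both changed sign without knockout 3, to 0.45 and -0.14. The raw signals of knockout 3 were 43.4 with a bead standard error of 2.10 by the first probe and 157 with 6.97 by the second, and those of knockout 1 were 156 with 6.59 and 41.5 with 1.85. Summed intensities of 7 head mesenchyme markers were 837 to 1136 in knockout and 948 to 1338 in wild type. Of the 7 differences 5 were positive and 2 negative, with none past the test. Col3a1 differed by 0.93 and the brighter Pdgfra by -0.82. Foxc1, Col1a1, Sox10 and Snai1 did not pass the filter.

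Fgf9, a ligand of neural retina and other epithelia that controls the border of the retina in mice, was close to the detection limit. By ILMN_1241189 it read 5.60, 6.48 and 4.93 in knockout 1, 2 and 3, against 5.20, 5.91 and 5.62 in wild type 1, 2 and 3 (difference 0.09, SE 0.40). This probe was detected on 2 of 3 knockout and 3 of 3 wild type arrays, and its highest and lowest values were both from knockout embryos. By ILMN_1221265, detected on 1 of 3 knockout and 2 of 3 wild type arrays, the difference was -0.12 (SE 0.18). Neither passed (adjusted p = 0.988 and 0.953), and the sign of the first depended on the array left out (-0.31 without knockout 2, 0.46 without knockout 3), while the second ranged from -0.32 without knockout 3 to -0.0072 without knockout 1.

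Fgf2, a ligand stored in basement membranes, and Fgf8, a ligand of the anterior neural ridge and other signalling centres, were below detection. The Fgf2 probe and both Fgf8 probes were detected on 0 of 6 arrays, so neither genotype has a measured level and no fold is given. The normalized values of Fgf2 were 4.93 to 5.00 in knockout and 4.96 to 5.02 in wild type, which is background. The same held for the brighter Fgf8 probe at 4.81 to 4.88 in knockout and 4.82 to 4.89 in wild type.

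Among the receptors, Fgfr2 was detected on all 6 arrays by each of its 4 probes. Fgfr2 is the receptor whose epithelial splice form binds Fgf7 and Fgf10, and mice without it in the lens ectoderm have lens defects. Its brightest probe, ILMN_1225071, read 10.81, 10.63 and 10.52 in knockout 1, 2 and 3, against 10.55, 10.42 and 10.56 in wild type 1, 2 and 3. The groups overlapped, and the difference of 0.14 (SE 0.12, 95% interval -0.14 to 0.43, adjusted p = 0.889) was the most narrowly bounded of the receptor probes that passed the filter. The second probe, ILMN_2646078, which is annotated to another transcript than the other 3, gave 0.27 (SE 0.23). The dimmer pair, ILMN_2609887 and ILMN_1229167, gave -0.25 (SE 0.31) and -0.33 (SE 0.34), so the signs of the 4 probes were divided and none passed (adjusted p 0.888 to 0.935). Leaving out 1 array at a time moved the 4 differences to between 0.063 (without knockout 1) and 0.21 (without knockout 3) for the brightest probe, 0.13 (without knockout 1) and 0.40 (without knockout 2) for the second, -0.39 (without wild type 1) and -0.13 (without wild type 3) for ILMN_2609887, and -0.44 (without wild type 1) and -0.11 (without wild type 2) for ILMN_1229167. The mean of the gene's 4 probes, whose signs are divided, gave -0.042.

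Fgfr1, a receptor widely expressed in mesenchyme, neural tissue and ectoderm, read 8.04, 7.44 and 7.44 in knockout 1, 2 and 3, against 6.80, 7.85 and 7.23 in wild type 1, 2 and 3 by its detected probe. The wild type embryos alone spanned from below to above knockout 2 and 3. The difference of 0.35 (SE 0.32, 95% interval -0.39 to 1.08) did not pass (adjusted p = 0.904), and it was 0.15 without knockout 1, 0.099 without wild type 1 and 0.62 without wild type 2. The other Fgfr1 probe was detected on 1 of 6 arrays and did not pass the filter.

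Fgfr3, a receptor known above all for restraining bone growth, was at the detection limit. Its probes were detected on 2 and 1 of the 6 arrays. Their normalized values spanned 4.98 to 5.14 and 4.92 to 5.46 in knockout, against 5.06 to 5.27 and 4.86 to 5.03 in wild type. No direction can be read at that level.

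**Figure D2:**
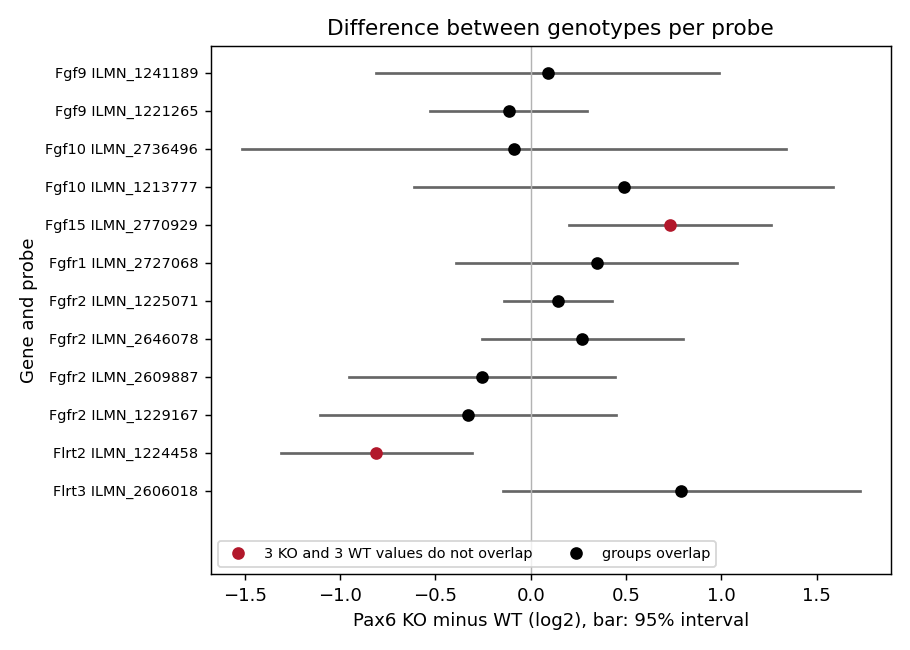
Difference between Pax6 knockout and wild type (horizontal axis, log2, knockout minus wild type) for the 12 member probes past the filter (vertical axis, gene and probe). Points are estimates and bars are 95% intervals of the model before adjustment for multiple tests, with red for the probes whose groups do not overlap. The intervals of Fgf15 (0.20 to 1.26) and Flrt2 (-1.31 to -0.31) leave out 0, and those of the other 10 probes include it.

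Flrt2, which guides migrating neurons in mice through Unc5 receptors and is also made in mesenchyme, had the lowest adjusted p of all members. It read 7.36, 7.54 and 7.12 in knockout 1, 2 and 3, against 7.94, 8.21 and 8.31 in wild type 1, 2 and 3. Every knockout embryo lay below every wild type embryo, which 6.47% of all probes kept also showed, and the nearest pair, knockout 2 and wild type 1, stood further apart than the group SDs of 0.21 and 0.19 (n = 3 each). The difference of -0.81 (SE 0.22, 95% interval -1.31 to -0.31), or 1.75-fold, did not pass (limma adjusted p = 0.425). In raw signal Flrt2 read 163, 212 and 170 in knockout 1, 2 and 3, against 285, 346 and 369 in wild type 1, 2 and 3.

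Flrt3, which promotes FGF signalling in frog embryos and is needed for an intact basement membrane in the early mouse embryo, differed the other way without separating the genotypes. It read 6.71, 7.37 and 7.88 in knockout 1, 2 and 3, against 7.18, 6.09 and 6.33 in wild type 1, 2 and 3. Wild type 1 lay above knockout 1, and within each genotype the embryos differed by more than a log2 unit. The difference of 0.79 (SE 0.41, 95% interval -0.14 to 1.73), or 1.73-fold, did not pass (adjusted p = 0.773). Without knockout 1, the array that stands apart, it was 1.10 (adjusted p = 0.658), without wild type 1 it was 1.11 (adjusted p = 0.641), and without knockout 3 it was 0.51 (adjusted p = 0.832). Of the 8 member probes detected on all 6 arrays, that of Flrt3 had the widest range, 1.79 log2 units. The summed linear intensity of 4 detected red cell markers was 832, 2058 and 3284 in knockout 1, 2 and 3, against 1354, 817 and 353 in wild type 1, 2 and 3. As for Flrt3, knockout 3 was highest and wild type 1 lay above knockout 1. The 3 globin genes carried this sum with positive differences, Alas2 ran the other way (-0.56), none of the 4 passed the test, Gata1 and Klf1 did not pass the filter, and the part of red cells in the Flrt3 difference was not tested.

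The array-by-array profile of Flrt3 was also set against the 7306 other named genes detected on all 6 arrays, by the root mean square difference of values centred on each gene's own mean. The 5 nearest were Gdf9 (0.174), Stard5 (0.201), Ptpn21 (0.226), Syne2 (0.235) and Fam171b (0.237), each with a positive difference that did not pass (adjusted p 0.677 to 0.876). They were picked for this likeness, so their direction and order are a description only.

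**Figure D3:**
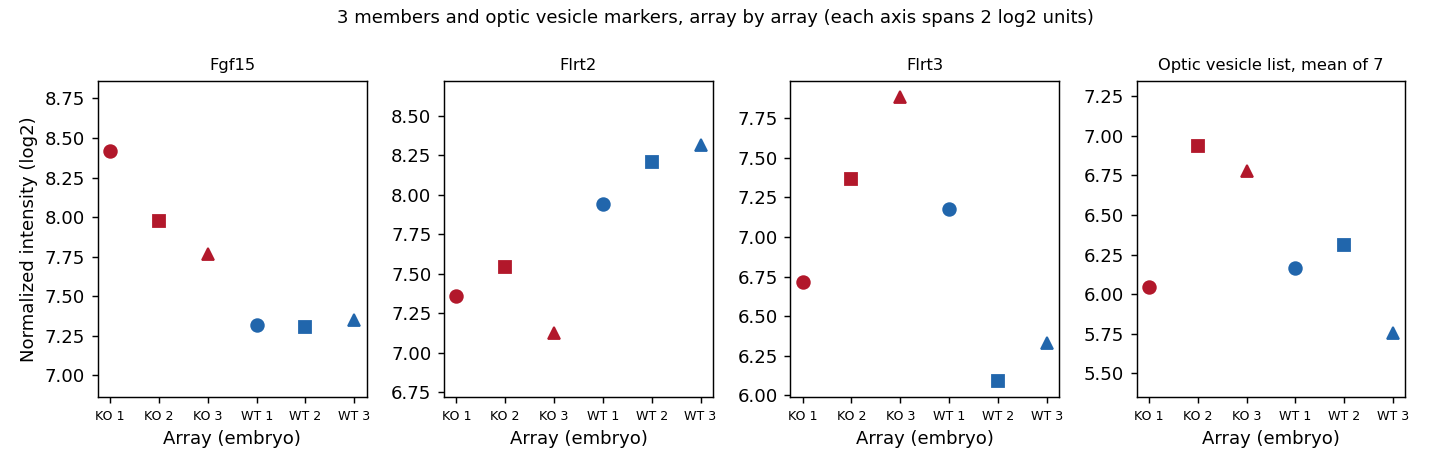
Normalized log2 intensity (vertical axes, each spanning 2 log2 units) of Fgf15, Flrt2, Flrt3 and the mean of 7 optic vesicle markers on each array (horizontal axes, Pax6 knockout in red, wild type in blue). Fgf15 is highest in knockout 1 at 8.42, where the optic vesicle mean is 6.05, while knockout 2 and 3 have optic vesicle means of 6.94 and 6.77.

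Other genes of the pathway were counted in 5 lists, of which 34 genes passed the filter with 57 probes. None of the 57 probes passed the test, against 0.0929% of all probes kept, while 2 were higher and 7 lower at an unadjusted p under 0.05 (3.34% and 3.89% of all probes kept), and their median difference was -0.05, against 0.12 for the 12 member probes and -0.0039 for all probes kept. The 2 ligands outside the members that passed the filter, of 17 with a named probe, were Fgf18 (0.36, SE 0.32) and the intracellular Fgf13 (0.28, SE 0.57). Fgfrl1, a receptor relative without a kinase domain, was lower on all knockout arrays, at 5.62, 5.88 and 5.16 in knockout 1, 2 and 3, against 6.12, 6.02 and 6.15 in wild type 1, 2 and 3 (-0.54, SE 0.29, adjusted p = 0.785). Of all probes kept 6.47% also showed this, and the knockout 3 value was close to the lowest detected value of that array (5.15). Fgfbp3, which binds FGF ligands, differed by 0.15 (SE 0.29). Of 14 genes for receptor adaptors and the ERK cascade, 6 had positive and 8 negative differences, with the smallest p for the adaptors Gab1 (-0.65) and Frs3 (-0.60) and the kinase Braf (-0.75), and the median of their 25 probes was -0.09.

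The feedback inhibitors and transcriptional targets had mostly negative differences, with 10 of 13 genes negative by the brightest probe and a median of -0.27 over their 20 probes. With 1 probe per gene and unnamed probes standing alone, 7276 of 14686 differences were negative, and the median of all probes kept was -0.0039. The list's 10 include Egr1, Spry4 and Dusp5, each detected on 1 of 3 knockout arrays, so nothing is read from their direction. The 7 probes that were lower at an unadjusted p under 0.05 all belong to this list, 3 of them to Etv1. Of the 7, 2 Etv1 probes were detected on 0 of 3 knockout and 3 of 3 wild type arrays, that of Egr1 on 1 of 3 and 3 of 3, and that of Spry4 on 1 of 3 and 2 of 3, so these passed the filter mainly or wholly through wild type and nothing is read from the count. Etv1, an ETS factor that FGF signals induce, had 1 probe detected on all 6 arrays, which read 6.73, 5.88 and 5.50 in knockout 1, 2 and 3, against 7.16, 7.26 and 7.74 in wild type 1, 2 and 3 (-1.35, SE 0.39, adjusted p = 0.449). The other Etv1 probes were not detected on any knockout array, so knockout has only a bound there. The bound sets each knockout array at its lowest detected signal, or at the probe's own value where higher. For these Etv1 probes the bound, wild type over knockout, came to 1.18-fold and 1.59-fold and was not tested. Both probes passed the filter wholly through wild type, so nothing is read from their direction. Its relative Etv5 was -0.99 (SE 0.33, adjusted p = 0.524) by the brightest probe and 0.13 by the other. Egr1, an immediate early factor, was -1.25 (SE 0.41, adjusted p = 0.524). Dusp6, a phosphatase that switches off ERK, was -0.78 by its brighter probe and 0.14 by the other, and the Sprouty inhibitor Spry4 was -0.86. These last 2 genes were named after their values were seen.

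Of the Flrt binding partners, 3 genes passed the filter with 8 probes, all with positive differences and a median of 0.63. Of all 19381 probes kept, 9581 had a positive difference. Probes of 1 gene read the same embryos, so the 8 are not separate observations. The latrophilin Adgrl3 was 1.04 (SE 0.33, adjusted p = 0.501) and 0.95 (SE 0.25, adjusted p = 0.387) by probes whose knockout values all lay above the wild type values. Of all probes kept 5.54% also showed this, and the remaining Adgrl3 probe gave 0.02. Each of the first pair was detected on 3 of 3 knockout and 1 of 3 wild type arrays. Both passed the filter mainly through knockout, and the wild type level is mostly background. By the first of these it read 6.24, 6.52 and 6.02 in knockout 1, 2 and 3, against 5.05, 5.82 and 4.80 in wild type 1, 2 and 3. The netrin receptors Unc5b and Unc5c differed by 0.22 (SE 0.14) and 0.67 (SE 0.48). None of the 8 probes passed.

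**Figure D4:**
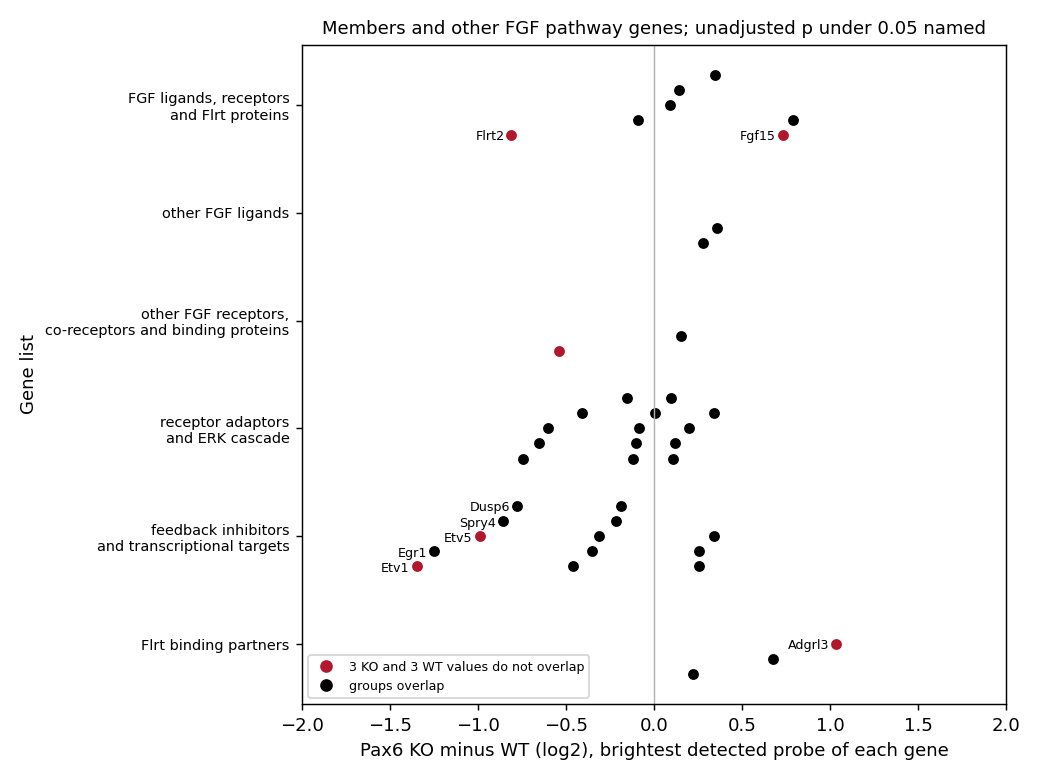
Difference between Pax6 knockout and wild type (horizontal axis, log2, knockout minus wild type) of the brightest detected probe of each gene, by gene list (vertical axis, points spread vertically within a list for legibility). Red points are genes whose 3 knockout and 3 wild type values do not overlap, and genes at an unadjusted p under 0.05 are named. Fgf15 and Flrt2 lie on opposite sides of 0, and 10 of 13 genes of the feedback and target list lie below it. Among these, Egr1, Spry4 and Dusp5 were each detected on 1 of 3 knockout arrays.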

How the data were processed

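The deposited table came from GenomeStudio, per the submitters' processing notes. It gives for each probe linear intensity (the mean bead signal, neither background-subtracted nor normalized by the authors), a detection p-value, the bead count, and the bead standard error (a signal value). Member probes had 13 to 68 beads per array. The second deposited table, intensity that the authors background-subtracted and normalized by a method not given in the sources used here, served as an alternative. Symbols came from GEO's platform annotation (29976 probes with 1 symbol, 10 with several, 16646 unnamed here). Promoters came from RefSeq (GRCm38.p6), which held 7 of the 10 members.

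Signals were corrected with normexp (offset 16), quantile normalized and brought to log2 (neqc, limma 3.58.1, R 4.3.3). Every probe detected (p under 0.05) on 3 or more arrays entered 1 fit of genotype (lmFit, eBayes with a variance trend, Benjamini-Hochberg over all 19381 probes). Values of undetected probes come from the same normalization. Replicates are embryos, and the number of arrays limits the precision. The fit was run on simulated data with independent normal noise and planted differences. That setting holds no outlying array and no sex difference, so it checks the computation only. The members and lists were chosen with earlier results of these data known. Named were all member probes, up to 3 genes of smallest p per pathway list, and the 5 profiles nearest the member of widest range. Alternatives changed the filter, background, offset, table, scaling, variance model, weights, probe summary, pairing and arrays.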

Additional observations from a re-analysis of the deposited data

How the results depend on the processing

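No member probe and no probe of the other pathway genes passed the threshold under any of the 18 alternatives, at an unadjusted p under 0.05 2 or 3 member probes did, and the adjusted p of Flrt2 ranged from 0.254 to 0.856 and that of Fgf15 from 0.357 to 0.891. Flrt2 (-1.01 to -0.67), Fgf15 (0.53 to 0.88) and Flrt3 (0.51 to 1.11) kept their direction in each. The filters, variance models, 1 probe per gene and replicate block cannot change a probe's difference, so agreement there was fixed in advance. The same holds for the mean of probes where a gene has 1 kept probe. Of 202 member values under alternatives, those settings included, 190 kept their direction. The other 12 were Fgf9 ILMN_1241189 with median scaling (-0.022), the mean of probes (-0.013) or without knockout 2 (-0.31) or wild type 1 (-0.10), Fgf9 ILMN_1221265 with the deposited normalized table (0.16), Fgf10 ILMN_2736496 with the mean of probes (0.20) or without knockout 2 (0.03), knockout 3 (0.45) or wild type 2 (0.34), Fgf10 ILMN_1213777 without knockout 3 (-0.14), and Fgfr2 ILMN_1225071 with median scaling (-0.043) or the mean of probes (-0.042). The mean of probes is a value of the gene, averaged over its kept probes, and not of the probe named. The cause of the other changes was not tested. Leaving out 1 array at a time gave ranges of -0.31 to 0.46 for the first Fgf9 probe, and of -0.77 to 0.45 and -0.14 to 0.89 for the Fgf10 probes in the order given. Median scaling moved the median of all probes to -0.15, and relative to that shift the Fgf9 and Fgfr2 probes were at 0.13 and 0.11. The 18 probes past the threshold became 7 with no filter, 68 with the stricter filter (fewer probes tested), 28 with no background correction, 11 with median scaling, 31 with array weights, and 3 to 7 without 1 array. With the replicate number as a block 1 probe passed, but the numbers did not pair the embryos (correlations of same-numbered deviations -0.04, -0.02 and -0.05).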
